A study of Caenorhabditis elegans with 36 samples.

Results

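The comparison set repeat RNA of young adult Caenorhabditis elegans that carry a nip3 mutation against that of animals with nip3 intact. It used 19 of the 20 RNA libraries, among 36 samples in the whole series. All 11 libraries of nip3_qe17 (3), nip3_qe20 (2), nip2_nip3 (3) and nip1_nip2_nip3 (3) formed the nip3-mutant side. All 8 libraries of wt (3), nip1_tb1601 (2) and nip2_tb1609 (3) formed the nip3-intact side. The single nip1_nip2 library entered no test, and its values are given beside the results. The series, on inherited RNA silencing, also holds adult and embryo small RNA libraries. Worms of every group were grown at 20 °C on HB101 bacteria and had the age label young adult. The labels name the alleles qe17, qe20, tb1601 and tb1609 for the single mutants and no allele for the double and triple mutants. They do not tie nip1, nip2 or nip3 to a gene, and the table of repeat RNA holds no genes, so neither the mutated genes nor tissue markers could be checked. Replicates are not stated to come from separate cultures, so p-values measure the spread between these libraries, which may be technical. The pooled test took libraries, not genotypes, as its units. Other mutations are unevenly spread over its sides: nip2 is mutant in nip2_nip3 and nip1_nip2_nip3 on the nip3-mutant side, and in nip2_tb1609 alone on the other. Titles name total RNA while the table itself is named for poly(A) RNA too.

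Most repeats of the worm genome are remnants of transposable elements. LTR retrotransposons, with an internal coding part (I) between long terminal repeats (LTR), copy themselves through RNA, as do LINEs. DNA transposons such as Tc1, Mirage, Chapaev and MuDR move as DNA through a transposase. In the C. elegans germline, piRNAs and the 22G-RNAs that RNA-dependent RNA polymerases make against targeted transcripts keep many such elements silent, and Argonautes carry the silencing to chromatin and to later generations.

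The deposited table counts reads over 403 repeat families, of which 288 are transposable element families and 115 are simple, low-complexity or satellite repeats. The 19 libraries held 50399 to 99572 repeat counts, with 31571 to 88398 on transposable elements. After a low-count filter, 149 families were tested. Levels of RNA are normalised CPM, counts per 1e6 of a library's total over the tested families multiplied by its TMM scaling factor. That factor ran from 0.453 in nip2_nip3 replicate 1 to 1.32 in nip1_nip2_nip3 replicate 1, so these levels are not plain shares of the total. The first principal component over these families held 44.3% of the variance and did not separate the genotypes. The second held 21.5%, and on it the nip3-intact libraries scored 2.35 to 5.38, above the nip3-mutant ones at -5.35 to 1.39, with the nip1_nip2 library at -3.39. The SINE family CELE45 alone took 5.14% to 61.4% of transposable element counts in nip3-mutant libraries and 10.8% to 47.7% in nip3-intact ones. In whole animals, fewer cells of a type and less RNA per cell cannot be told apart.

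A pair of libraries stood apart from their labels' other libraries or from the rest of their side. The library labelled nip3_qe17 replicate 1 had 975 CPM of CER9-I_CE, from 53 counts, while the other 10 nip3-mutant libraries had 6964 to 34109 CPM and the nip3-intact ones 817 to 1876. Over the 149 families its deviations correlated best with those of nip1_tb1601 (r = 0.68), as a description of these libraries. Other libraries also correlated best with a genotype not their own. For nip3_qe17 replicate 2 this was nip3_qe20 (0.65, beside -0.49 with its own genotype), and for nip3-intact nip2_tb1609 replicate 1 also nip3_qe20 (0.23). The library labelled nip1_nip2, which the label gives as intact for nip3, had 24800 CPM. It lay above every nip3-intact library in 8 of the 16 families called higher below. The library labelled nip3_qe17 replicate 1 also exceeded every nip3-intact library for Chapaev-2_CE, CEMUDR1, CER9-LTR_CE, CER15-1-I_CE, LINE2E_CE and HAT2_CE. In the other families called higher it did not. On the second principal component it lay at 0.51, below every nip3-intact library. Whether both labels are right is in doubt and was not tested, and they were kept as given. For the nip1_nip2 library, a wrong label cannot be told apart from an effect of the double mutation. Results are therefore given with and without the library labelled nip3_qe17 replicate 1. It was singled out by these values, so smaller p-values without it are no added support.

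Between nip3-mutant and nip3-intact libraries, 18 of 149 families passed the test (12.1%), at an adjusted p under 0.05 by edgeR's quasi-likelihood test with Benjamini-Hochberg adjustment. RNA of 16 families was higher in nip3 mutants (10.7%) and RNA of 2 was lower (1.34%). The median log2 fold change over all 149 was 0.01. LTR retrotransposons made up 10 of the 18, and 8 of these were of the Pao class in the table's annotation. At an unadjusted p under 0.05 there were 39. The low-count filter asked for enough counts in as many libraries as the smaller side holds (8). Families low in nip3-intact libraries, such as CER12-LTR_CE (at most 111 CPM there), could pass it through nip3-mutant libraries alone. A family seen only in nip3-intact libraries needed all 8. The balance of higher and lower families thus follows in part from the filter. Without the filter, 14 of 258 families were called. Without the library labelled nip3_qe17 replicate 1, 18 of 145 families passed (12.4%), 16 higher (11%) and 2 lower (1.38%), and 16 were shared with the full comparison. HAT2_CE lost its call then (adjusted p = 0.0699), LINE2E_CE missed the filter, and CER2-LTR_CE and PAL8C_3, named after their values were seen, were added. The count fell to 10 without nip1_nip2_nip3 replicate 3, wt replicate 2 or wt replicate 3, and to 11 without nip2_nip3 replicate 1. CER9-I_CE, CER12-LTR_CE, Chapaev-2_CE, CEMUDR1, CER2-1-LTR_CE, CER9-LTR_CE, CER15-I_CE and CER15-1-I_CE passed whichever of the 19 libraries was left out.

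**Figure D1:**
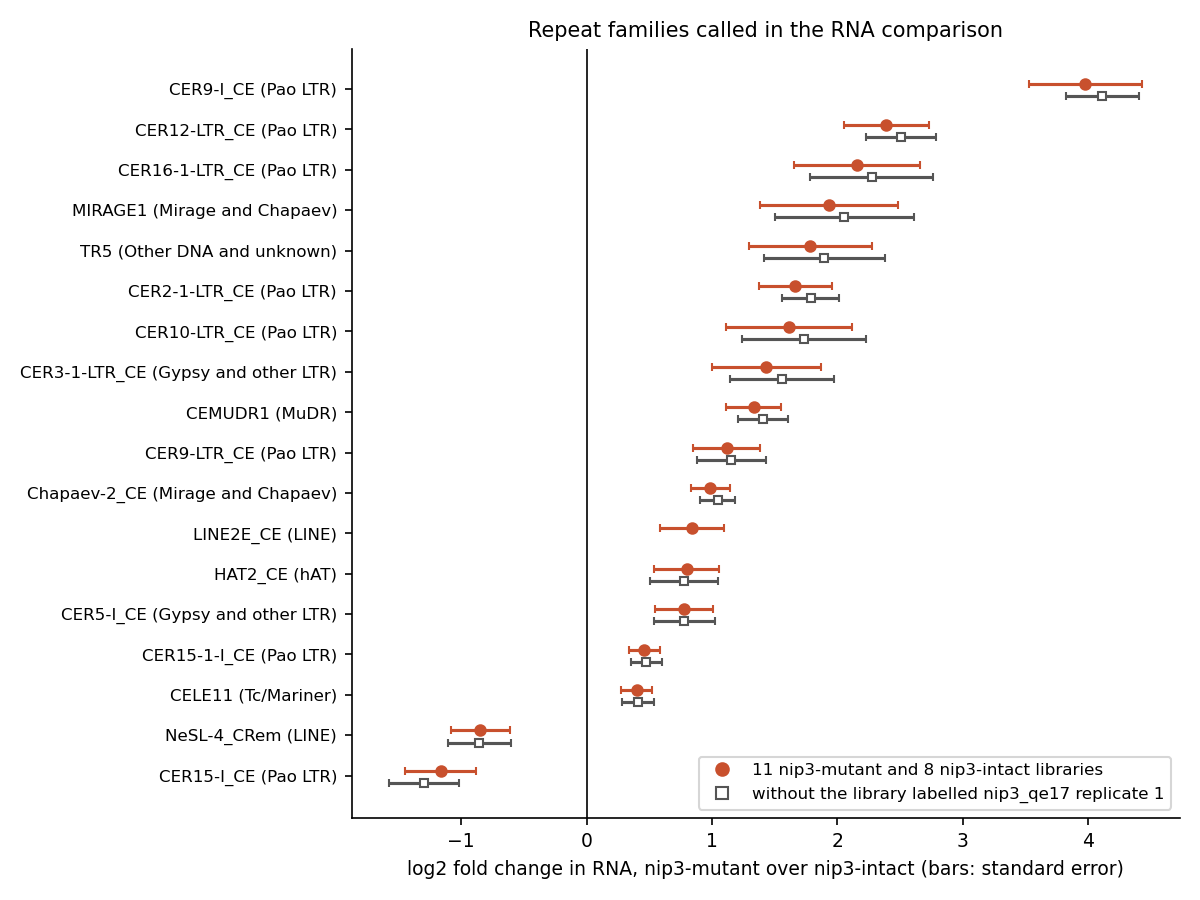
Log2 fold change of RNA in nip3-mutant over nip3-intact libraries for the 18 families called, with standard errors. Filled circles use all 11 and 8 libraries, open squares leave out the library labelled nip3_qe17 replicate 1, and LINE2E_CE has no square because it then missed the low-count filter. Values run from 3.98 for CER9-I_CE to -1.16 for CER15-I_CE, and leaving that library out turns no direction.

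The Pao element CER9, whose internal part encodes the proteins of a retrotransposon, showed the largest change. CER9-I_CE RNA had a lowest, median and highest level of 975, 19518 and 34109 CPM in nip3 mutants, and of 817, 942 and 1876 CPM in nip3-intact animals. Of the 11 nip3-mutant libraries, 10 lay above every nip3-intact library, and the exception was the library labelled nip3_qe17 replicate 1. The change was 15.7-fold, a log2 fold change of 3.98 ± 0.45 (SE), with an adjusted p of 3.3e-06. Without that library it was 4.11 (adjusted p = 1.3e-09, same edgeR test), but the library was singled out by this very level. Per kilobase of annotated copies, the mean level was 244 CPM in nip3 mutants and 15.5 CPM in nip3-intact animals. The 4 nip3-mutant genotypes overlapped: nip2_nip3 had 16219, 34109 and 21903 CPM, nip1_nip2_nip3 had 15378, 25469 and 20603 CPM, and nip3_qe20 had 19518 and 6964 CPM. The other two nip3_qe17 libraries had 13722 and 29011 CPM.

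The table counts 56 CER9-I_CE copies on 5 chromosomes, 22 of them on V and 20 on X, and 19 are over 1000 bases long. The longest, X:7349880-7363783 in the ce11 build (13904 bases), overlaps the annotated span of the pseudogene C07D8.2. The next, III:13230129-13242682 (12554 bases), overlaps the span of the protein-coding gene Y43F4A.3. CER9-LTR_CE copies lie directly on both sides of it, at III:13229612-13230128 and III:13242683-13243199. Counts are summed over copies, so which copy gave the RNA cannot be read from them.

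CER9-LTR_CE, the terminal repeat of the same element, was higher as well, with a smaller change. Its lowest, median and highest levels were 177, 269 and 526 CPM in nip3 mutants against 52.2, 130 and 235 CPM in nip3-intact libraries. Of the 11 nip3-mutant libraries, 7 lay above every nip3-intact one. The log2 fold change was 1.12 ± 0.27 (SE), with an adjusted p of 0.0095. CER9-LTR_CE and 5 other called families named here, CER2-1-LTR_CE, CER16-1-LTR_CE, CER10-LTR_CE, TR5 and CELE11, fall outside the rule for named families and were chosen after their values were seen.

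Terminal repeats of 4 further Pao elements rose with nip3 mutation, all from low counts. CER12-LTR_CE had 73.6, 323 and 504 CPM (lowest, median, highest) in nip3 mutants and 24.7, 52.5 and 111 CPM in nip3-intact libraries. Its 10 nip3-mutant libraries other than the one labelled nip3_qe17 replicate 1 lay above all 8 others, and the log2 fold change was 2.39 ± 0.34 (SE; adjusted p = 5.1e-05). CER2-1-LTR_CE showed the same arrangement, with medians of 482 and 129 CPM and a log2 fold change of 1.66 ± 0.29 (SE; adjusted p = 3.9e-04). CER16-1-LTR_CE had medians of 323 CPM in nip3 mutants and 86.3 CPM in nip3-intact libraries, and 4 of the 11 nip3-mutant libraries overlapped with the others. Its log2 fold change was 2.16 ± 0.50 (SE; adjusted p = 0.0082). It passed in the 11 of 19 leave-outs where it could be tested, and missed the low-count filter in the rest. With wt alone as the control it was not called (adjusted p = 0.09996, same edgeR test). CER10-LTR_CE overlapped most, with 5 of 11 nip3-mutant libraries above every nip3-intact one, and its change of 1.61 ± 0.50 (SE; adjusted p = 0.038) held its call in 8 of 19 leave-outs, with the highest adjusted p, 0.0733, without nip1_tb1601 replicate 2.

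The pair of CER15 internal families moved in opposite directions. CER15-1-I_CE had 4141, 4969 and 7211 CPM (lowest, median, highest) in nip3 mutants and 2980, 3950 and 4787 CPM in nip3-intact libraries. The sides overlapped, with 8 of 11 nip3-mutant libraries above every nip3-intact one. Its log2 fold change was 0.46 ± 0.12 (SE; adjusted p = 0.0196). It was not called with library totals alone as the scaling (adjusted p = 0.351, same edgeR test), nor with wt left out. CER15-I_CE had 81.1, 307 and 589 CPM in nip3 mutants and 444, 655 and 1055 CPM in nip3-intact libraries. Of the 11, 9 lay below every nip3-intact library, and the exceptions were the library labelled nip3_qe17 replicate 1, at 589 CPM, and nip1_nip2_nip3 replicate 1, at 483 CPM. Its log2 fold change was -1.16 ± 0.28 (SE; adjusted p = 0.0101), but 0.25 (adjusted p = 0.717) when libraries were scaled by their simple-repeat totals, which raised the median of all families by 1.51. The only CER15-I_CE copy over 1000 bases is V:17146845-17157642 (10798 bases), which overlaps the spans of F40D4.13, F40D4.14, F40D4.17 and a piRNA locus.

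Of 17 Pao families tested, 7 were higher and 1 was lower, with a median log2 fold change of 0.36 beside 0.01 over all 149. These values also depend in part on the low-count filter, which families could pass through nip3-mutant libraries alone. CER17-I_CE, the Pao family with the highest mean count, did not pass (-0.22 ± 0.62 SE, adjusted p = 0.905). Of 9 Gypsy and other LTR families tested, 2 were higher and none lower. CER5-I_CE, an internal part, had medians of 1009 and 538 CPM in nip3-mutant and nip3-intact libraries, with 3 of 11 nip3-mutant libraries above every nip3-intact one. Its log2 fold change was 0.78 ± 0.23 (SE; adjusted p = 0.0345), and CER3-1-LTR_CE, a terminal repeat, changed by 1.43 ± 0.43 (SE; adjusted p = 0.0346). Both held their calls in 9 of 19 leave-outs. CER1, the Gypsy element that encodes virus-like particles in the germline, did not pass (-0.34 ± 0.22 SE, adjusted p = 0.367). CER6-I_CE came close to the threshold (adjusted p = 0.0603).

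Among DNA transposons, Chapaev-2_CE and CEMUDR1 were the only families whose 11 nip3-mutant and 8 nip3-intact libraries did not overlap (2 of 149, 1.34%). Without the library labelled nip3_qe17 replicate 1 this count was 5 (3.36%), with CER9-I_CE, CER12-LTR_CE and CER2-1-LTR_CE added. That library was left out because of its CER9-I_CE level, so this larger count follows in part from the choice. CEMUDR1, a MuDR-type element, had 6662, 10940 and 25392 CPM (lowest, median, highest) in nip3 mutants and 4630, 5435 and 6492 CPM in nip3-intact libraries. The lowest nip3-mutant value belonged to the library labelled nip3_qe17 replicate 1, and the next lowest was 9111 CPM. The log2 fold change was 1.33 ± 0.22 (SE; adjusted p = 2.5e-04), and 1.21 (adjusted p = 0.0596) with wt alone as the control.

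Chapaev-2_CE, whose class encodes a Chapaev transposase, had 2742, 4274 and 7741 CPM (lowest, median, highest) in nip3 mutants and 1777, 2374 and 2611 CPM in nip3-intact libraries. Again the lowest nip3-mutant library was the one labelled nip3_qe17 replicate 1, and the other 10 started at 3395 CPM. The log2 fold change was 0.99 ± 0.16 (SE; adjusted p = 1.6e-04), and 1.04 (adjusted p = 9.5e-06) without that library, left out after its values were seen. Chapaev-1_CE, the more abundant relative, did not pass (-0.09 ± 0.20 SE, adjusted p = 0.873).

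**Figure D2:**
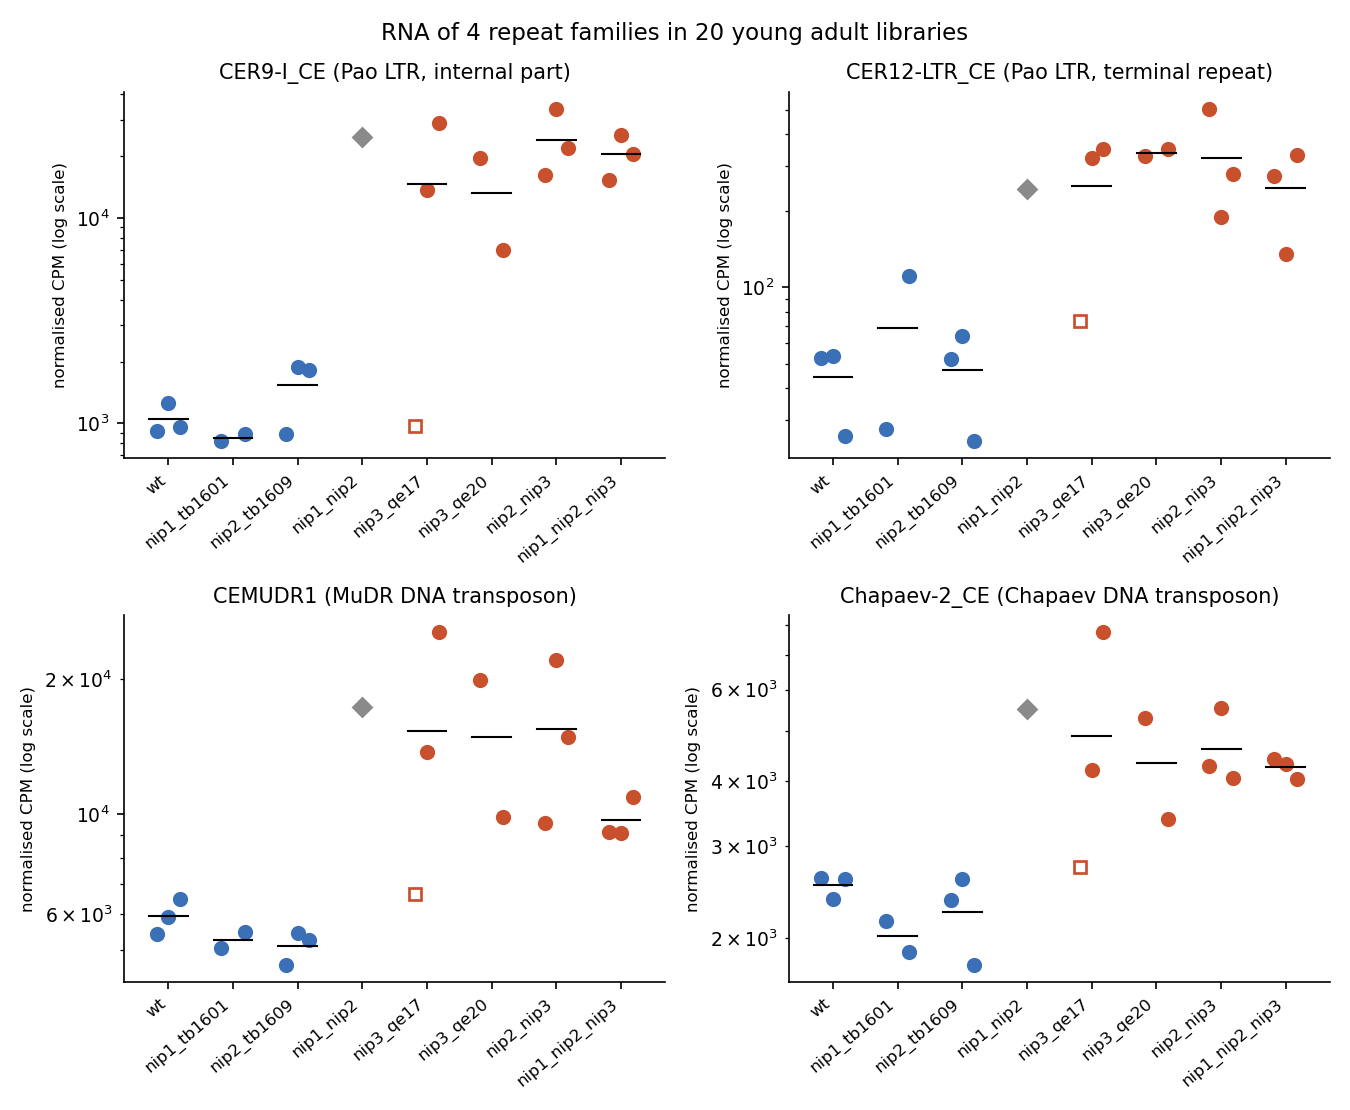
Normalised CPM on a log scale of CER9-I_CE, CER12-LTR_CE, CEMUDR1 and Chapaev-2_CE RNA in each of the 20 libraries, by genotype (blue, nip3-intact; orange, nip3-mutant; grey diamond, the nip1_nip2 library). Bars are genotype means and the open square is the library labelled nip3_qe17 replicate 1, which sits at 975 CPM of CER9-I_CE, while the grey diamond sits at 24800 CPM.

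In the nip1_nip2 library, 8 of the 16 families called higher exceeded every nip3-intact library. It had 24800 CPM of CER9-I_CE, 17334 CPM of CEMUDR1, 5506 CPM of Chapaev-2_CE and 463 CPM of CER2-1-LTR_CE. Each of these is above the highest nip3-intact library. MIRAGE1, at 1828 CPM, lay within the nip3-intact range of 818 to 1884 CPM. With 1 library there is no replicate check.

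MIRAGE1, a Mirage-type DNA transposon, was by far highest in a single genotype. The nip2_nip3 libraries had 6132, 23110 and 13875 CPM. The other 8 nip3-mutant libraries had 1270 to 3201 CPM and the nip3-intact ones 818 to 1884 CPM, which overlap. The nip1_nip2_nip3 libraries, which carry nip2 and nip3 mutations as well, had 2638, 2163 and 2289 CPM, each above every nip3-intact library. Of the 11 nip3-mutant libraries, 7 lay above every nip3-intact one. Over the whole comparison MIRAGE1 was called (1.93 ± 0.55 SE, adjusted p = 0.0258), but with nip2_nip3 left out it was 0.53 (adjusted p = 0.139). Without wt replicate 2 or wt replicate 3 the adjusted p was 0.0502 or 0.0572. The table counts 51 MIRAGE1 copies, 10 of them over 1000 bases, with long ones at V:3325117-3330741, II:14687826-14693449 and IV:701905-707528. The last lies in the span of cutl-26, which encodes a cuticlin-like protein.

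The nip3 effect was then tested apart with nip2 intact, as nip3_qe17 and nip3_qe20 (5) against wt (3), and with nip2 mutant, as nip2_nip3 (3) against nip2_tb1609 (3). These share no libraries. With nip2 intact, 8 of 149 families passed (5.37%), 7 higher (4.7%) and 1 lower (0.671%). Without the library labelled nip3_qe17 replicate 1 this was 9 of 145 (6.21%), 7 higher (4.83%) and 2 lower (1.38%). Without wt replicate 1 it was 0, with 22 at an unadjusted p under 0.05, without wt replicate 3 it was 3, and without nip3_qe17 replicate 3 it was 5. With nip2 mutant, 5 families passed (3.36%), all higher. That count was 1, MIRAGE1, without any of the 3 nip2_tb1609 replicates in turn, 3 without nip2_nip3 replicate 2 and 2 without nip2_nip3 replicate 3.

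CER9-I_CE, CER12-LTR_CE, CEMUDR1 and CER6-I_CE passed in both backgrounds. CER9-I_CE changed by 3.72 with nip2 intact (adjusted p = 0.00872) and by 3.98 with nip2 mutant (adjusted p = 0.0111), as log2 fold changes. CER12-LTR_CE changed by 2.61 and 2.67 (adjusted p = 0.0201 and 0.0289), and CEMUDR1 by 1.34 and 1.60 (adjusted p = 0.0375 and 0.0289). Same-numbered nip2_nip3 and nip2_tb1609 libraries deviated together, and with the replicate number as a block CER12-LTR_CE lost its call with nip2 mutant (adjusted p = 0.0565). In a blocked fit of only those 6 libraries, added after the data were seen, it passed (adjusted p = 0.0355), as did CER9-I_CE, CEMUDR1 and MIRAGE1, while CER6-I_CE missed the low-count filter. None of the 4 was called in the test of the difference between the backgrounds, given below. CER6-I_CE, the internal part of a Gypsy element, had no count in any of the 3 wt libraries, and without the library labelled nip3_qe17 replicate 1 it missed the low-count filter and was not tested. The nip3 alleles were at least 9.0-fold higher than wt, with 3 counts over the wt group as the floor. In nip2_tb1609 it had 1, 0 and 0 counts, and in nip2_nip3 3, 11 and 8. The highest nip3-intact level, 222 CPM, was in a nip1_tb1601 library, beside a nip3-mutant mean of 200 CPM. Only 5 of the 11 nip3-mutant libraries lay above it. Over 149 families the changes in the backgrounds correlated at r = 0.71 and rho = 0.43, across families, which are not independent replicates.

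TR5, an unclassified repeat with 3 copies on IV, passed with nip2 intact (adjusted p = 0.0141), where wt had 1, 2 and 0 counts. PALNN1_CE was the family that passed as lower there (-1.45) and was named after its value was seen. The test of the difference between backgrounds called 1 of 149 families (0.671%), MIRAGE1. Its nip3 effect was 0.32 with nip2 intact (adjusted p = 0.697) and 3.50 ± 0.43 (SE) with nip2 mutant (adjusted p = 7.2e-05). The difference was 3.18 ± 0.54 (SE; adjusted p = 0.0037) and stayed between 2.69 and 3.52 over the leave-outs. Without the library labelled nip3_qe17 replicate 1, MIRAGE1 was again the 1 family called, of 145 (0.69%), with a difference of 3.19 (adjusted p = 0.0064). With library totals alone as the scaling it was 3.55 (adjusted p = 0.0520).

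**Figure D3:**
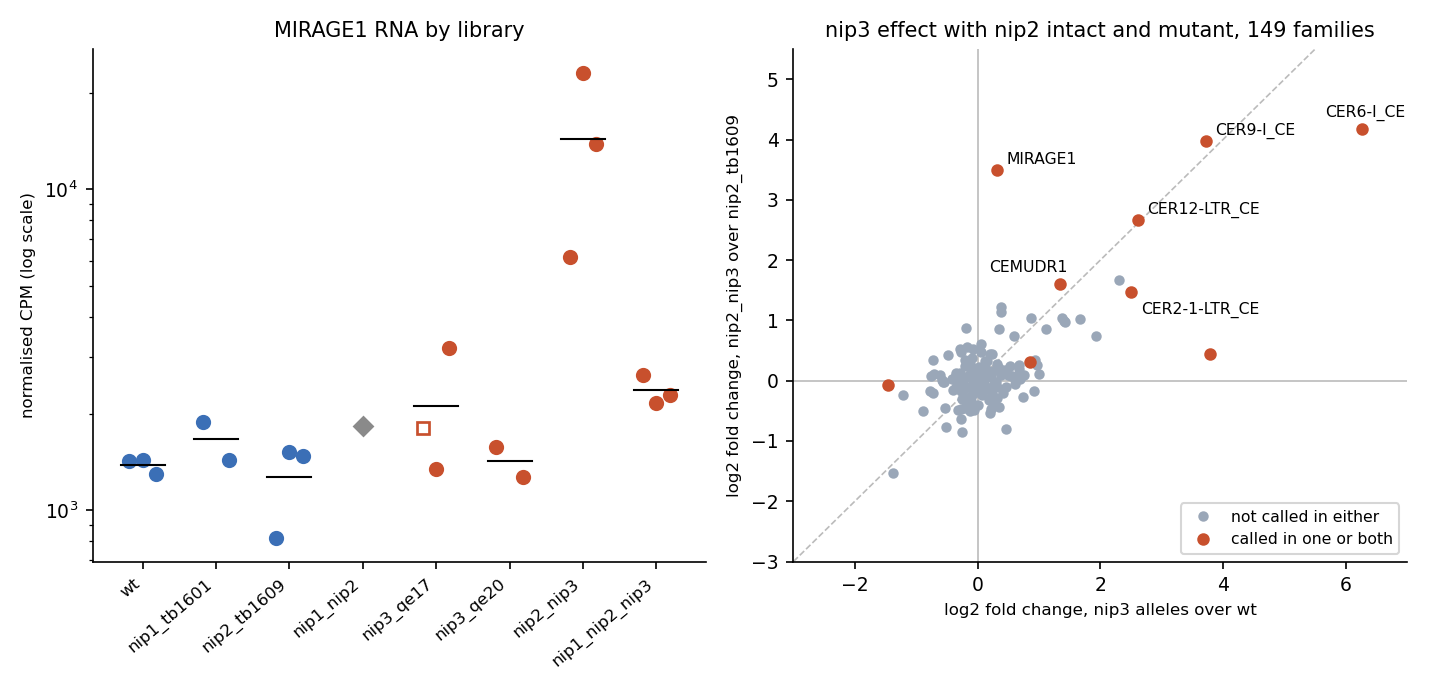
Left, normalised CPM of MIRAGE1 RNA on a log scale in each of the 20 libraries by genotype, with bars at genotype means and the open square for the library labelled nip3_qe17 replicate 1. Right, the nip3 effect of 149 families as log2 fold change with nip2 intact (x) and nip2 mutant (y), where MIRAGE1 lies at 0.32 and 3.50, away from the dashed line of equal change, and CER9-I_CE at 3.72 and 3.98 lies near it; the CER6-I_CE point is a fitted value against wt libraries with no count.

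Between the alleles nip3_qe17 (3) and nip3_qe20 (2), 0 of 149 families passed (0%) by edgeR, with 5 at an unadjusted p under 0.05. DESeq2 also called 0. Without the library labelled nip3_qe17 replicate 1, edgeR called 0 of 145, with 2 at an unadjusted p under 0.05. With 3 and 2 libraries this does not show that the alleles act alike.

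The remaining called families were changed less, or less steadily. TR5 had a median of 466 CPM in nip3 mutants and 99.2 CPM in nip3-intact libraries (1.78 ± 0.49 SE, adjusted p = 0.0240), and lost its call without wt replicate 2 (adjusted p = 0.0502). It could be tested in only 13 of 19 leave-outs, and in the rest it missed the low-count filter. LINE2E_CE, a CR1-type LINE, changed by 0.84 ± 0.25 (SE; adjusted p = 0.0346), and CELE11, a short Tc/Mariner repeat with 757 copies, by 0.40 ± 0.12 (SE; adjusted p = 0.0346). HAT2_CE, a hAT element, changed by 0.80 ± 0.26 (SE; adjusted p = 0.0466), and it passed in 6 of 19 leave-outs. NeSL-4_CRem, a family named for a Caenorhabditis remanei LINE, was lower, with medians of 404 and 727 CPM and a log2 fold change of -0.85 ± 0.24 (SE; adjusted p = 0.0252). Under the scaling by simple-repeat totals it was 0.63 (adjusted p = 0.331), and without wt replicate 2 or 3 the adjusted p was 0.0502 or 0.0579. Its 5 copies are at most 203 bases long.

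Many abundant families did not pass. Tc1A, from the Tc1 transposon, had a log2 fold change of 0.03 ± 0.13 (SE; adjusted p = 0.935). RTE-1, an autonomous LINE, had -0.17 ± 0.17 (SE; adjusted p = 0.607), and Turmoil1, a Harbinger-type transposon, had -0.21 ± 0.21 (SE; adjusted p = 0.588). None of 10 Helitron and none of 5 PiggyBac families passed. Of 29 Tc/Mariner families 1 passed, of 18 hAT families 1, of 7 MuDR families 1, and of 6 Mirage and Chapaev families 2, all higher.

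Summed by class, 0 of 11 sums passed an exact permutation test over the 19 libraries after adjustment, and 1 had an unadjusted p under 0.05. The Pao sum was 51393 ± 18119 CPM (SD, n = 11) in nip3 mutants and 31771 ± 9159 CPM (SD, n = 8) in nip3-intact animals, a log2 difference of 0.67 (exact permutation p = 0.0121, adjusted p = 0.133). Without the library labelled nip3_qe17 replicate 1 its adjusted p was 0.117 in the same exact permutation test. It passed without nip3_qe20 replicate 2 (exact permutation test, adjusted p = 0.0244). Transposable elements took 74.0% ± 13.5 (SD, n = 11) of repeat counts in nip3 mutants and 61.9% ± 12.9 (SD, n = 8) in the others. The exact two-sided permutation p was 0.0687, and it was 0.0113 without nip2_tb1609 replicate 1 and 0.0473 without nip3_qe17 replicate 3.

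Some of the called LTR families, and TR5, followed the SINE family CELE45, as did families that were not called. Within the 11 nip3-mutant libraries, the log levels of CER3-1-LTR_CE and CELE45 correlated at r = 0.94, and within the 8 nip3-intact ones at 0.89. For CER10-LTR_CE the values were 0.94 and 0.74, for CER16-1-LTR_CE 0.90 and 0.51, and for TR5 0.87 and 0.65, all from the same libraries and depth. Among families not called, picked here by these values, PALTTTAAA3 had 0.98 and 0.98 and CeRep3 had 0.97 and 0.96. CER17-LTR_CE, also not called, ran the opposite way (-0.91 and -0.83). Following CELE45 was thus no trait of the called families alone. CER9-I_CE did not follow CELE45 in this way (-0.03 and 0.34). CELE45 itself did not pass the test between the sides (0.41 ± 0.68 SE, adjusted p = 0.780). With the CELE45 level as a covariate, chosen after the data were seen, CER9-I_CE changed by 3.95, CER3-1-LTR_CE by 1.47 and MIRAGE1 by 1.73 (adjusted p = 7.2e-07, 8.9e-07 and 0.0118). The count of called families was then 34, with 22 higher and 12 lower. What varies with CELE45 was not tested.

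**Figure D4:**
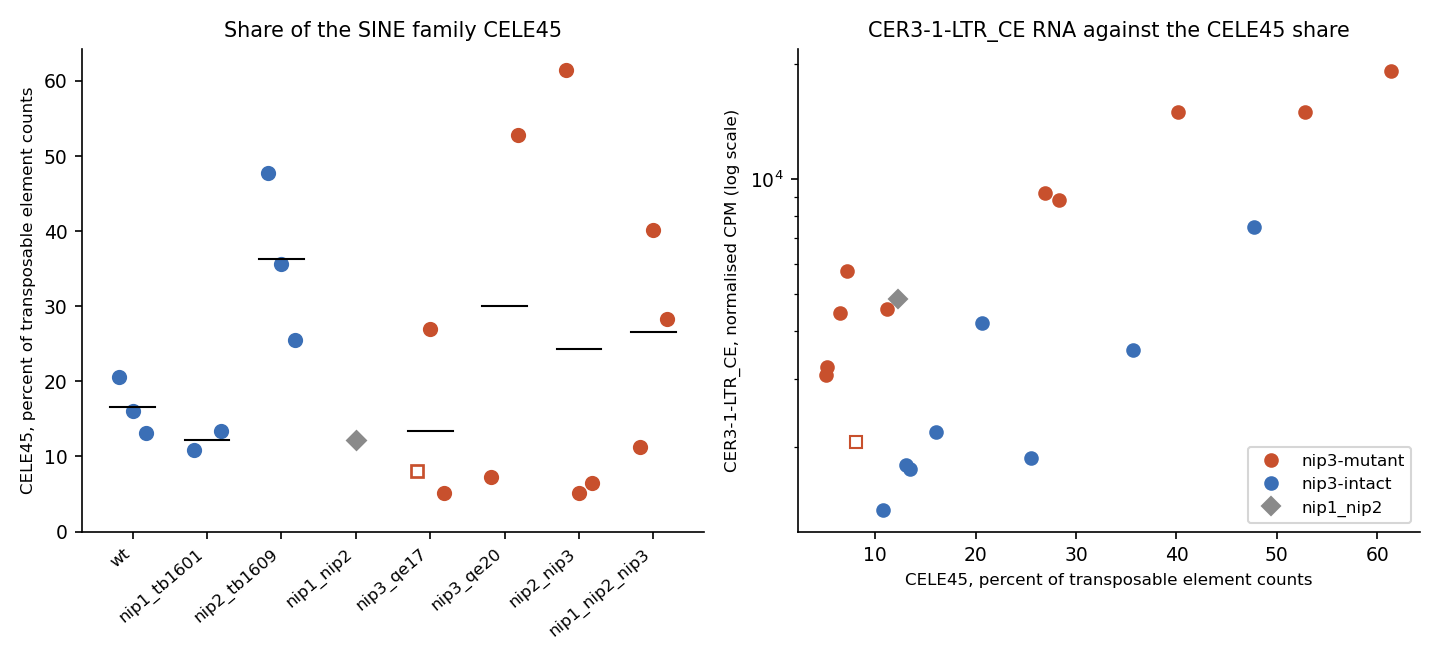
Left, the share of transposable element counts on the SINE family CELE45 in each of the 20 libraries (bars, genotype means; open square, the library labelled nip3_qe17 replicate 1), from 5.14% to 61.4% in nip3 mutants. Right, CER3-1-LTR_CE in normalised CPM on a log scale against that share, where the levels climb with the share in both sides.

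Adult small RNA libraries of nip3_qe17 (3), nip2nip3 (3) and wt (2) gave a second readout of the same families. They are not the same libraries as the RNA ones, and the labels do not say whether they share cultures. Each held 6361904 to 10962034 counts on genes, whose scaling factors were used for the families. Small RNAs of 119 of 187 families changed between nip3 mutants and wt (63.6%), 29 higher (15.5%) and 90 lower (48.1%), by the same edgeR test. When scaled within the repeat families instead, 120 changed, 54 higher and 66 lower, and the median log2 fold change went from -0.44 to -0.07.

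Small RNAs of most families with higher RNA were lower, as were those of many families whose RNA was not called. Of the 15 RNA-higher families measured in both tables, 11 had lower and 0 higher small RNAs, beside 67 lower and 19 higher of all 137 families in both. With the scaling within repeat families this was 9 lower and 3 higher of 15, beside 49 lower and 39 higher of 137. With the gene-table scaling, nip3_qe17 alone against wt had 11 lower and 0 higher of 15, beside 74 lower and 11 higher of 137. For nip2nip3 alone it was 11 lower and 2 higher, CER9-I_CE and LINE2E_CE (0.31, adjusted p = 0.0162), beside 70 lower and 28 higher of 137. Over the 137 families, RNA and small RNA changes correlated at r = -0.12 and rho = -0.11. They share their family annotation but no library.

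Small RNAs of CER9-I_CE, whose RNA rose most, were not called as changed in the pooled test with the gene-table scaling. They were at 4246 ± 494 CPM (SD, n = 2) in wt, 4199 ± 68.5 (SD, n = 3) in nip3_qe17 and 5350 ± 162 (SD, n = 3) in nip2nip3. The log2 fold change was 0.17 (adjusted p = 0.342), and 0.54 (adjusted p = 0.0033) with the scaling within repeat families. Against wt apart, with the gene-table scaling, they were higher in nip2nip3 (0.33, adjusted p = 0.00587) and not called in nip3_qe17 (-0.02, adjusted p = 0.868). CEMUDR1 small RNAs were at 791 ± 21.1 CPM (SD, n = 2) in wt, 305 ± 29.4 (SD, n = 3) in nip3_qe17 and 296 ± 19.9 (SD, n = 3) in nip2nip3. Every mutant library was below both wt libraries, and the log2 fold change was -1.40 (adjusted p = 1.0e-06). Chapaev-2_CE (-1.62), CER12-LTR_CE (-1.63), CER2-1-LTR_CE (-2.17), CER16-1-LTR_CE (-2.09) and CER15-1-I_CE (-2.45) fell in small RNA as well, under both scalings. CER9-LTR_CE had 0.02 (adjusted p = 0.927) and was not called, and CER15-I_CE, whose RNA was lower, had -0.05 (adjusted p = 0.751). With the scaling within repeat families both were called higher, CER9-LTR_CE by 0.40 (adjusted p = 0.0284) and CER15-I_CE by 0.33 (adjusted p = 0.0133).

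MIRAGE1 small RNAs were at 324 ± 37.5 CPM (SD, n = 2) in wt, 149 ± 11.5 (SD, n = 3) in nip2nip3 and 77.1 ± 9.20 (SD, n = 3) in nip3_qe17. All 6 mutant libraries were below wt, and the nip3_qe17 libraries, where MIRAGE1 RNA was 1348 to 3201 CPM, were below the nip2nip3 ones. The log2 fold changes were -2.07 in nip3_qe17 and -1.11 in nip2nip3. Turmoil1 is an example of a family with less small RNA and no called RNA change, at -1.78 in small RNA.

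**Figure D5:**
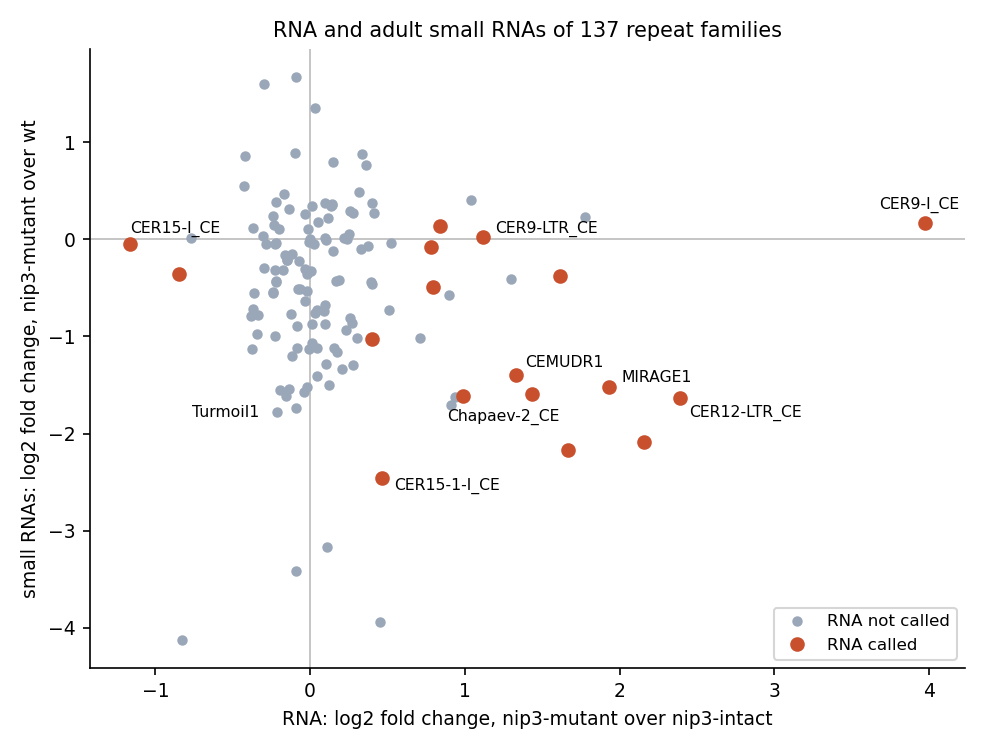
Log2 fold change of RNA (x, 11 nip3-mutant over 8 nip3-intact libraries) and of adult small RNAs (y, 6 nip3-mutant over 2 wt libraries, scaled with the gene table) for 137 repeat families, with those called in RNA in orange. CER9-I_CE lies at 3.98 and 0.17, while CER12-LTR_CE at 2.39 and -1.63 lies below 0 on the small RNA axis.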

How the data were processed

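The authors' deposited tables hold estimated counts per repeat family in ce11, with fractions, made with STAR and featureCounts per the submitters' processing notes (cutadapt for small RNAs). Versions, strand and the treatment of reads with several positions are not given in the sources used here, so reads of near-identical copies may be split between them and families. Counts were rounded to whole numbers. Transposable element families were scaled by TMM within the table, kept by filterByExpr on nip3 status and tested with edgeR 4.0.16 (R 4.3.3) with Benjamini-Hochberg adjustment. Backgrounds, their difference and alleles were contrasts of a fit with a coefficient for each genotype. Small RNA families were scaled with TMM factors from the table of genes. Class sums used an exact two-sided permutation test over 75582 assignments. DESeq2 1.42.0 and limma 3.58.1 were alternatives, with other filters, scalings, controls, a replicate block and leave-outs. Files were read with data.table, version 1.17.8. Same-numbered nip2_nip3 and nip2_tb1609 libraries correlated in their deviations from genotype means at 0.41 to 0.76 over 3 pairs. Those of nip3_qe17 and nip3_qe20 did so at 0.36 and 0.79 over 2 pairs. The main tests used no pairing, and the replicate block is given as an alternative. A blocked fit of only the libraries compared was made for nip2_nip3 and nip2_tb1609 alone. Named families were the 8 largest changes per direction among called families averaging 20 counts or more, the 4 smallest p per direction, those not overlapping, preset examples by class, and families called in the difference. Members and lists were chosen with earlier results of these data known. Gene spans came from RefSeq genes of WBcel235. No 2 replicates were close enough to be 1 library deposited again. The method was tested on simulated data.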

Additional observations from a re-analysis of the deposited data

Results flagged for a closer look

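Of 88 groups examined, 14 had a sample far from the others. Each group was the 8 nip3-intact RNA libraries or the 6 nip3-mutant small RNA libraries, for a single family or sum. Chance gives about 5% for independent groups, but these groups share libraries. The rule covered 4 to 10 samples, so the 11 nip3-mutant RNA libraries were not screened. Most of the 14 were nip2_tb1609 replicate 1 among the 8 nip3-intact RNA libraries, the one with the highest CELE45 share of that side. It had the highest CER3-1-LTR_CE (7485 CPM), CELE11 (10148 CPM), HAT2_CE (801 CPM), HelitronY2_CE (3464 CPM) and Tc1A (71140 CPM), and the lowest CER1 (19373 CPM) and NDNAX2_CE (331 CPM). The Tc/Mariner sum was also high there (168408 CPM), as was that of other DNA and unknown repeats (266598 CPM), and the Gypsy and other LTR sum was low (35910 CPM). CER12-LTR_CE stood out in nip1_tb1601 replicate 2 at 111 CPM, and PALTTAA2_CE in wt replicate 2 at 6085 CPM. In small RNAs of the 6 nip3-mutant libraries, nip3_qe17 replicate 1 was apart for CER9-LTR_CE (444 CPM) and RTE-1 (2416 CPM).

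The nip3 effect on MIRAGE1 differed between the nip2 backgrounds by 3.18 on the log2 scale, by the test of the difference in the report. In that test nip2_nip3 was the only genotype with both mutations, and the nip1_nip2_nip3 libraries, outside it, had lower MIRAGE1 levels. An effect of the nip2 background and a trait of the nip2_nip3 strain cannot be told apart. The nip1_nip2 library, outside every test, was above all nip3-intact libraries for CER9-I_CE (24800 CPM), CER12-LTR_CE (242 CPM), Chapaev-2_CE (5506 CPM), CEMUDR1 (17334 CPM), CER2-1-LTR_CE (463 CPM), CER16-1-LTR_CE (242 CPM), CER15-1-I_CE (5242 CPM) and LINE2E_CE (286 CPM).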

How the results depend on the processing

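The whole comparison called 18 families. It called 32 when libraries were scaled by simple-repeat totals (all higher), 8 with a mean of at least 50 counts, 10 with wt alone as the control and 10 in a test against a fold of 1.2. With library totals and no TMM factors it called 12. CER5-I_CE, CER15-1-I_CE, CELE11, HAT2_CE, LINE2E_CE and NeSL-4_CRem were then not called. Leaving out a genotype gave 6 (nip1_nip2_nip3), 10 (nip1_tb1601), 11 (nip3_qe20) or 5 (wt), the CELE45 covariate 34, and leaving out each library 10 to 20. CER9-I_CE passed in 41 of 41 alternatives, Chapaev-2_CE in 41 of 41 and CEMUDR1 in 40 of 41. CER12-LTR_CE passed in all 36 of the 41 alternatives in which it was tested. It missed the count filter when any nip3-mutant genotype was left out, and with a mean of at least 50 counts. By simple-repeat totals CER15-I_CE reversed to 0.25 and NeSL-4_CRem to 0.63, and by the median of its families the Gypsy sum reversed to 0.60; the cause was not tested. With nip2 intact, where 8 were called, DESeq2 called 20, the mean of 50 counts 2, a fit of only those genotypes 0 (27 at an unadjusted p under 0.05) and the covariate 25, with 0 to 11 over leave-outs. With nip2 mutant, where 5 were called, the mean of 50 counts and library totals gave 3, the smaller fit 2 and the covariate 25, with 1 to 4 over leave-outs. The difference called 1 family, but 0 with library totals (MIRAGE1, adjusted p = 0.0520) and 3 with the covariate. Class sums gave 1 call by simple-repeat totals, by family medians or without nip3_qe20, and 0 to 1 over leave-outs. The transposable element share differed by 9.81 to 15.9 percentage points over leave-outs, with 15.9 and 13.5 in the pair that passed. Small RNA calls stayed between 97 and 119 over leave-outs. Over all genotypes the 52 same-numbered pairs had correlations of deviations from -0.86 to 0.79 (median 0.05). With the number as a replicate block, 16 families were called in the whole comparison, 8 with nip2 intact, 4 with nip2 mutant (5 in the smaller fit), 1 in the difference, 0 between alleles, 0 class sums and 115 in small RNAs, and the share differed by 12.3 points. The low counts of CER12-LTR_CE, TR5 and CER6-I_CE, often under 20 a library, limit the precision of their changes.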

Other observations

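The gene cutl-26, whose span holds a long MIRAGE1 copy, was looked up after the MIRAGE1 values were seen. Its adult small RNAs numbered 89, 78 and 133 counts in the nip2nip3 libraries, 1, 1 and 1 in nip3_qe17, and 0 and 4 in wt. The mean was 12.9 ± 1.57 CPM (SD, n = 3) in nip2nip3 and 0.120 ± 0.0446 CPM (SD, n = 3) in nip3_qe17. Small RNAs assigned to the gene and to the repeat copy inside its span may be the same reads, and no test was made.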
